A study of Mus musculus with 6 samples.

Results

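The growth factors of the epidermal growth factor (EGF) family and the ERBB receptors they bind were followed in mammary epithelium without Wwox. The ligands taken were Egf, Tgfa, Hbegf, Epgn, Ereg, Btc and Nrg1, and the receptors were Egfr, Erbb2 and Erbb3. Every probe set annotated with exactly 1 of these symbols was included, whatever its values, which gave 21 probe sets of 10 genes among 45037 probe sets and 18193 named genes on the array. Of the 21, 11 belong to ligands and 10 to receptors. RNA came from organoids of mammary epithelium, which are pieces of duct and alveolus isolated by enzymatic digestion, of mice 8 weeks old on a mixed (129/J; C57BL/6) background. The KO group was BK5-cre +; WWOX flox/flox, measured on arrays KO5, KO6 and KO7. The WT group was BK5-cre -; WWOX flox/flox, measured on arrays WT1, WT2 and WT3. Each array held the RNA of 1 mouse, so that n = 3 for each group.

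All 6 mice carried floxed Wwox, and only the KO mice carried Cre, which in this line is driven by the bovine keratin 5 promoter of basal epithelial cells. Loss of Wwox and the presence of Cre therefore cannot be told apart on these arrays. Wwox itself was lower in KO. Its brightest probe set was at 6.23, 5.87 and 5.96 in KO and at 7.77, 7.63 and 7.72 in WT (log2 scale). Markers of epithelium were high in every library, with a mean over 8 luminal markers, such as Krt8 and Krt18, of 13.40 to 13.62 in KO and 13.12 to 13.59 in WT. The 9 basal markers averaged 9.50 to 9.78 in KO and 9.49 to 9.83 in WT. Markers of other cells were read too. Without detection calls a low value among them cannot be told from background. The mean over 8 endothelial markers was 9.60 to 10.14 in KO and 8.96 to 9.48 in WT, and Tie1 and Cldn5 among them were called higher. Of 8 measured fibroblast markers Col1a1 was called higher, at 1.43, and of 8 macrophage and dendritic markers Aif1 was called lower, at -1.41, with 0 of the 8 higher in KO. The macrophage and dendritic mean was 6.04 to 7.03 in KO and 6.28 to 7.36 in WT. The mean over 8 lymphocyte markers was 5.11 to 6.66 in KO and 8.20, 7.13 and 5.42 on WT1, WT2 and WT3. Here too 0 of the 8 were higher in KO, with a median log2 change of -1.45. The WT arrays were far apart, and 0 were called by limma (0 at an unadjusted p under 0.05). The KO and WT libraries also differed in the evenness of their transcripts. The 3' end of Gapdh exceeded its 5' end by 0.40 to 0.56 in KO and by 0.95 to 2.41 in WT (log2), a measure of RNA quality and labelling that moved with genotype. The part of these differences in the results that follow was not tested, apart from the values given beside them.

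As background, EGF family ligands are made as membrane-anchored precursors that metalloproteases release. EGF, TGF-α, amphiregulin and epigen bind EGFR. HB-EGF, betacellulin and epiregulin bind EGFR and ERBB4, whereas the neuregulin NRG1 binds ERBB3 and ERBB4. Binding joins receptors in pairs that signal through the Ras-MAPK cascade and through PI3K and AKT. ERBB2 has no known ligand and acts as a partner, and ERBB3 has little kinase activity of its own and recruits PI3K. In the mouse mammary gland amphiregulin and EGFR are required for the outgrowth of ducts at puberty, and the WWOX protein is known to bind ERBB4. The question that the arrays can address here is whether transcripts of the ligands and receptors differed between KO and WT epithelium.

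None of the 21 probe sets passed the limits of a call, an unadjusted limma p under 0.01 together with a change of at least 2-fold, against 1.99% of all probe sets tested. An unadjusted p under 0.05 was reached by 1 of them, against 19.3% of all probe sets, and this was an Hbegf probe set that lay higher in KO. After Benjamini-Hochberg adjustment over the 45037 probe sets, the adjusted p of the members ran from 0.110 to 0.978, and 0 were under 0.05. The log2 change, KO minus WT, was positive for 17 of 21 (81.0%) and for 43.7% of all probe sets, and its median was 0.16, against -0.03 for all. The sizes were small. Without regard to sign the median change of the members was 0.16, against 0.17 over all probe sets. The median change of the members was 0.02 without WT1, and 0.28, against 0.09 for all probe sets, after centring each array on its ribosomal protein genes.

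The arrays of a group were often further apart than the groups. For 18 of the 21 probe sets the KO and WT values overlapped. For 3 every KO value lay above every WT value, or 14.3%, against 10.7% of all probe sets, and for 0 every KO value lay below every WT value, against 13.6% of all probe sets. The 95% interval of the change lay wholly within a 2-fold difference either way for 17 of the 21 (81.0%, against 87.3% of all probe sets). All 10 receptor probe sets were among these 17. The exceptions were ligands, namely 1 probe set each of Hbegf and Btc and the single probe sets of Epgn and Ereg. A mean log2 value of at least 6 was held by 5 of the 10 receptor and 7 of the 11 ligand probe sets. The change of a dimmer probe set is limited by background, so its narrow interval need not mean a small change of the transcript.

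**Figure D1:**
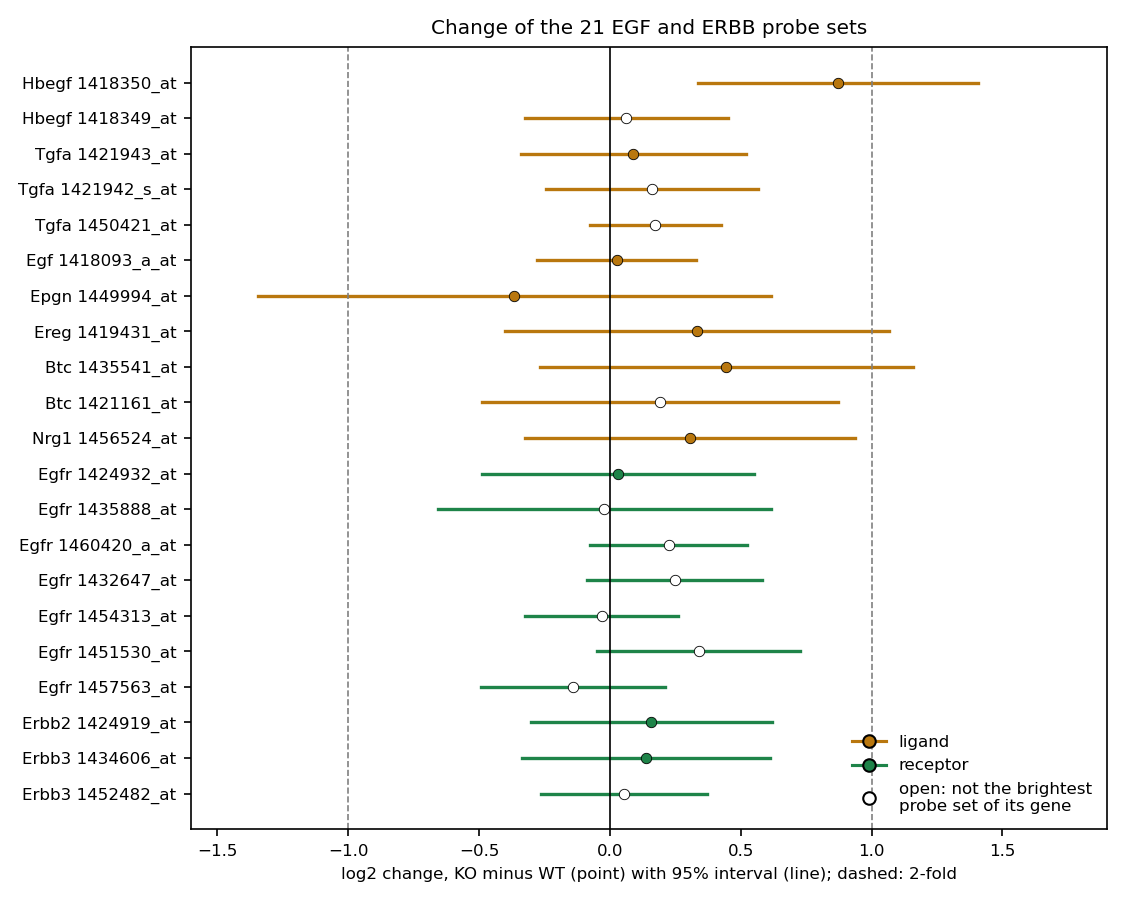
Log2 change, KO minus WT (x axis), of the 21 probe sets of EGF family ligands (orange) and ERBB receptors (green), listed down the page. Points are limma estimates, lines are 95% intervals, dashed lines mark 2-fold, and filled points are the brightest probe set of each gene. Only the upper Hbegf interval excludes 0, and all 10 receptor intervals stay between the dashed lines.

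Hbegf, the heparin-binding ligand of EGFR and ERBB4, had the largest difference of the members, but on only 1 of its 2 probe sets. On 1418350_at it was at 11.59, 11.91 and 11.56 in KO, against 11.30, 10.71 and 10.42 in WT. Every KO array lay above every WT array, and WT1 lay nearest to KO. The log2 change was 0.87 (SE 0.23, 95% interval 0.34 to 1.41), or 1.83-fold, with an unadjusted p of 0.00594 and a limma adjusted p of 0.110. It is the only member within looser limits of an unadjusted p under 0.01 and 1.5-fold, which 5.36% of all probe sets met.

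The other Hbegf probe set, 1418349_at, gave 10.57, 10.86 and 10.26 in KO and 10.60, 10.50 and 10.40 in WT. The groups overlapped and the log2 change was 0.06 (SE 0.17, 95% interval -0.32 to 0.45, limma adjusted p = 0.874). The probe sets of this gene thus gave different answers. Subtracted within each array, 1418350_at minus 1418349_at was 1.02, 1.05 and 1.30 in KO and 0.70, 0.21 and 0.02 in WT, with no overlap (exact permutation test, two-sided, p = 0.1, the smallest that 3 against 3 allow). This measure was chosen after the values had been seen.

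The Hbegf difference also moved with the libraries. On 1418350_at the WT arrays with the largest 3' excess of control transcripts, WT2 and WT3, were the lowest. WT1, with the smallest excess of the WT arrays, was the highest of WT. The order was not the same throughout, since WT2 had the largest excess and WT3 the lowest Hbegf value. With the 3' excess of each array, averaged over Gapdh and β-actin, as a covariate the log2 change was 0.24 (SE 0.33, limma unadjusted p = 0.499). Without WT1 it was 1.12 and within the limits of a call (limma unadjusted p = 0.00031), which 3.63% of all probe sets then met. The endothelial mean, looked at with the Hbegf values known, was 9.48, 9.32 and 8.96 on WT1, WT2 and WT3 and 9.60 to 10.14 in KO. The part of RNA quality or of cell content in the Hbegf difference was not tested beyond these values.

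**Figure D2:**
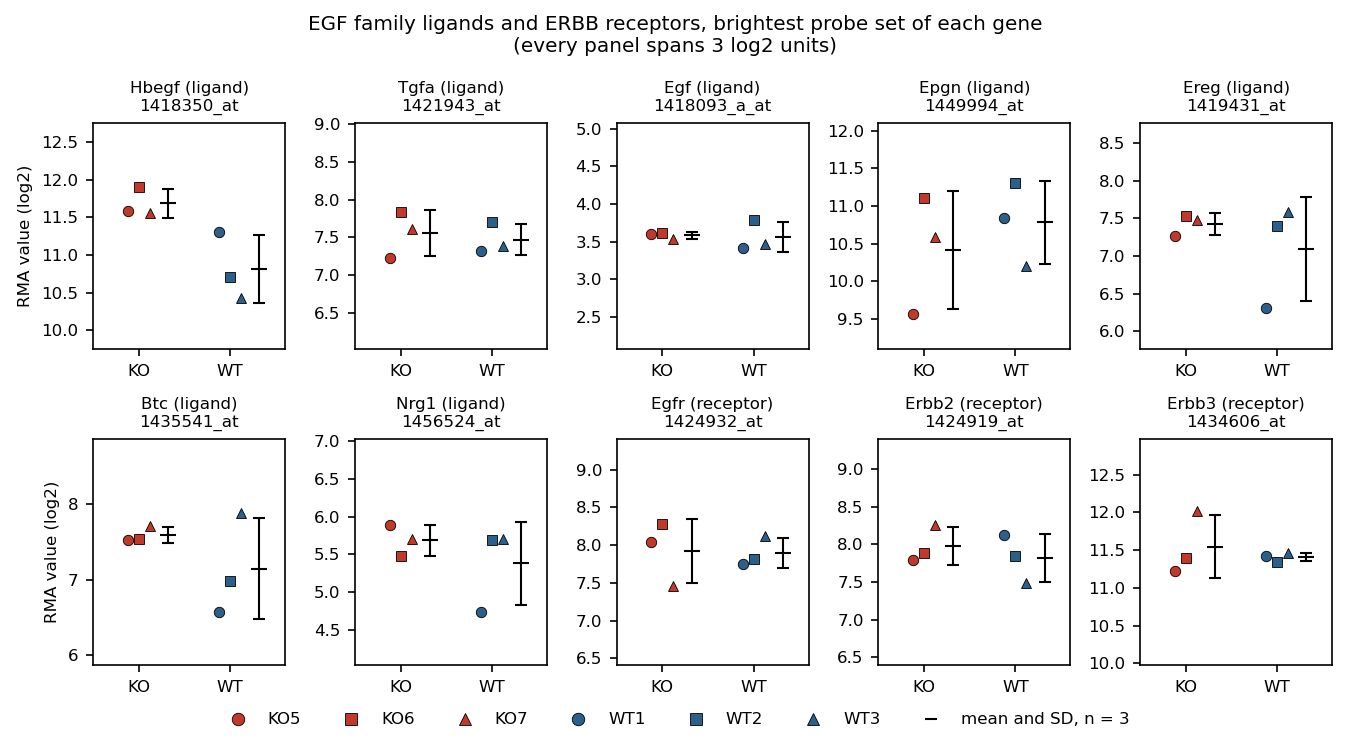
RMA values (log2, y axis) of the 10 genes on every array, each by its brightest probe set, KO (red) left of WT (blue). Symbols are single arrays and black bars are the mean and SD of 3 mice, and each panel spans 3 log2 units. Groups are apart for Hbegf alone, WT1 is low for Ereg, Btc and Nrg1, KO5 is low for Epgn, and KO7 is high for Erbb3.

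Epgn, Ereg and Btc lie beside each other in the genome, in the order Epgn, Ereg, Areg, Btc. No probe set here carries the symbol of Areg, which encodes amphiregulin, alone, and it was not analysed here. Ereg and the brighter Btc probe set were each lowest on WT1 and highest on WT3, whereas Epgn was lowest on KO5 and highest on WT2. Epgn, the low-affinity EGFR ligand epigen, was at 9.56, 11.10 and 10.59 in KO and 10.84, 11.31 and 10.20 in WT. Its KO arrays were the furthest apart of all members, with an SD of 0.78 in KO and 0.55 in WT, and KO5 was its lowest array. The log2 change was -0.37 (SE 0.42, 95% interval -1.35 to 0.61, limma adjusted p = 0.687), and 0.06 without KO5.

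Ereg, which encodes epiregulin, was at 7.27, 7.54 and 7.48 in KO and at 6.31, 7.40 and 7.58 in WT. A single array, WT1, set its mean difference. The log2 change was 0.33 (SE 0.31, 95% interval -0.40 to 1.07, limma adjusted p = 0.616), and without WT1 it was -0.06. Nrg1, a neuregulin that binds ERBB3 and ERBB4, was alike, at 5.89, 5.47 and 5.70 in KO and 4.74, 5.70 and 5.70 in WT. Its log2 change was 0.31 (SE 0.27, limma adjusted p = 0.586), and without WT1 it was -0.01.

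Btc, which encodes betacellulin, was at 7.52, 7.53 and 7.72 in KO and 6.58, 6.97 and 7.88 in WT on its brighter probe set 1435541_at. The KO arrays lay close together (SD 0.11), inside the wide range of the WT arrays (SD 0.67). The log2 change was 0.45 (SE 0.30, 95% interval -0.27 to 1.16, limma adjusted p = 0.475). It was 0.16 without WT1 and 0.82 without WT3 (unadjusted p = 0.00163, short of 2-fold). The dimmer probe set 1421161_at was at 4.21, 3.65 and 4.35 in KO and 3.42, 3.76 and 4.46 in WT, with a log2 change of 0.19. WT1 was thus the lowest array and WT3 the highest on each Btc probe set.

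The covariate for the 3' excess moved these ligands the other way from Hbegf. With it, 2 members came within the limits of a call, against 0.702% of all probe sets, and they were Ereg at 1.46 (unadjusted p = 0.00288) and Nrg1 at 1.23 (unadjusted p = 0.00484). For Btc the estimate was 1.06 (unadjusted p = 0.0835). The mean 3' excess was 0.55, 0.60 and 0.54 in KO and 0.96, 2.13 and 1.80 in WT, so that the groups did not overlap in the covariate and its slope rests mostly on the WT arrays. WT1 combined the smallest excess of the WT arrays with the lowest Ereg, Nrg1 and Btc values of all 6. It also stood apart in cell markers, read here with these values known. Its lymphocyte mean was the highest of all 6, at 8.20. Its adipocyte mean was the lowest, at 7.66, against 8.28 and 8.80 on WT2 and WT3 and 8.09 to 8.41 in KO. The part of the 3' excess or of cell content in the WT1 values was not tested.

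**Figure D3:**
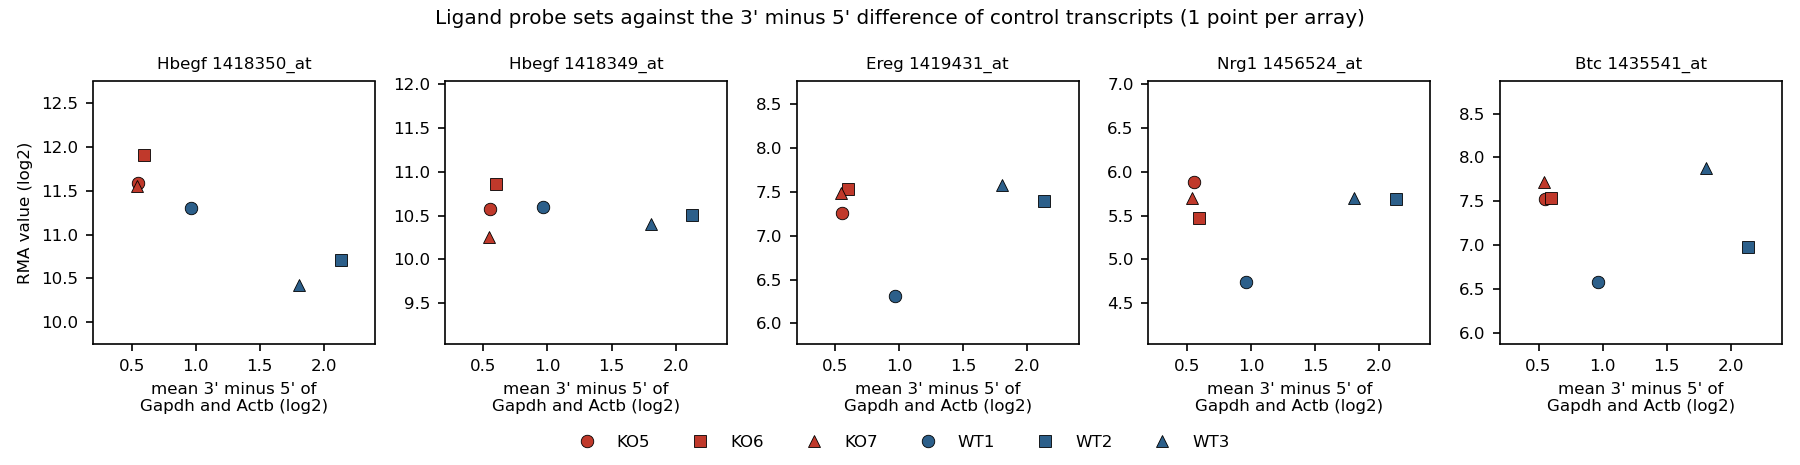
RMA values (log2, y axis) of 5 ligand probe sets against the 3' excess of the same array, averaged over Gapdh and β-actin (log2, x axis), with KO arrays in red and WT arrays in blue. Hbegf 1418350_at is lowest on the WT arrays at 1.80 and 2.13, whereas Ereg, Nrg1 and Btc are lowest on WT1, at 0.96.

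Tgfa and Egf, the classical ligands of EGFR, differed little. The brightest Tgfa probe set, 1421943_at, was at 7.23, 7.83 and 7.62 in KO and 7.32, 7.70 and 7.39 in WT, a log2 change of 0.09 (SE 0.18, limma adjusted p = 0.835). On 1421942_s_at, Tgfa was at 6.05, 6.57 and 6.10 in KO and 6.05, 6.27 and 5.91 in WT, a change of 0.16. On 1450421_at it was at 5.81, 5.61 and 5.74 in KO and 5.56, 5.58 and 5.49 in WT. On this last probe set the groups were apart, by a log2 change of 0.17 (SE 0.11, 95% interval -0.08 to 0.42, limma adjusted p = 0.424), which is well short of the limits of a call. Its lowest KO value, on KO6, lay just above its highest WT value, on WT2.

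Egf was at 3.60, 3.62 and 3.53 in KO and 3.42, 3.79 and 3.47 in WT, with a log2 change of 0.03 (SE 0.13, 95% interval -0.28 to 0.33). These values lay below the median of all probe sets on every array, which was 5.42 to 5.47. The deposited table holds no detection calls, so it cannot be said whether Egf was above background, and a difference in Egf may not be measurable on this probe set.

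Egfr, the receptor of most of these ligands, was read by 7 probe sets, with log2 changes between -0.14 and 0.34 and a median of 0.03. On the brightest, 1424932_at, it was at 8.04, 8.28 and 7.45 in KO and 7.74, 7.82 and 8.12 in WT, a log2 change of 0.03 (SE 0.22, 95% interval -0.49 to 0.55, limma adjusted p = 0.959). On 1435888_at it was at 8.13, 7.81 and 7.40 in KO and 7.35, 7.77 and 8.29 in WT, a change of -0.02. On 1460420_a_at it was at 7.81, 7.76 and 7.65 in KO and 7.48, 7.36 and 7.71 in WT, a change of 0.22. KO7 was the lowest KO array on each of these, and the groups overlapped on each.

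The remaining Egfr probe sets were dimmer and gave changes of either sign. The groups were apart on 1451530_at alone, at 5.26, 5.12 and 5.14 in KO and 4.98, 4.48 and 5.04 in WT. Its log2 change of 0.34 (SE 0.17, 95% interval -0.05 to 0.73, unadjusted p = 0.0776, limma adjusted p = 0.317) was 0.16 without WT2 and -0.01 with the covariate for the 3' excess. On 1432647_at the change was 0.25, on 1454313_at -0.03 and on 1457563_at, the dimmest, -0.14. Since bulk RNA was measured, fewer cells of a type and less RNA per cell cannot be told apart for any of these genes.

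**Figure D4:**
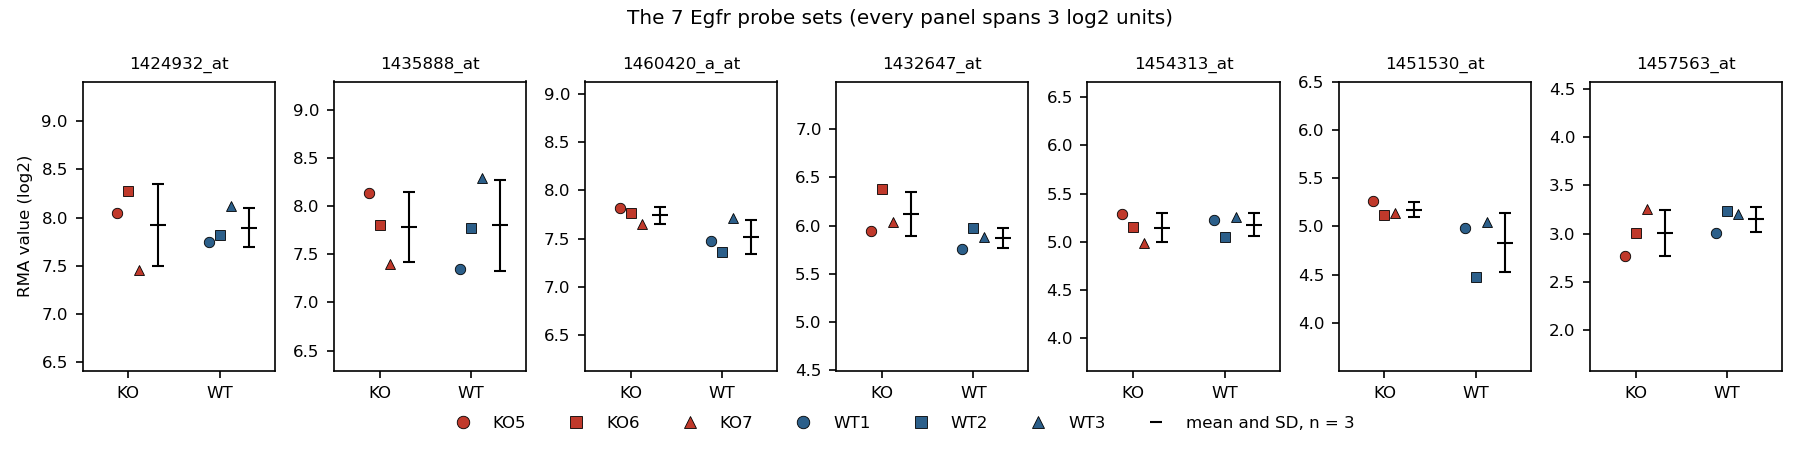
RMA values (log2, y axis) of the 7 Egfr probe sets on every array, KO (red) left of WT (blue), from the brightest probe set to the dimmest. Symbols are single arrays and black bars are the mean and SD of 3 mice, and each panel spans 3 log2 units. Groups overlap on all but 1451530_at, where the log2 change was 0.34.

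Erbb2, the partner with no known ligand, was at 7.80, 7.88 and 8.26 in KO and 8.13, 7.85 and 7.49 in WT. The groups overlapped, with a log2 change of 0.16 (SE 0.20, 95% interval -0.30 to 0.62, limma adjusted p = 0.715). Erbb3 was at 11.23, 11.39 and 12.02 in KO and 11.42, 11.35 and 11.46 in WT on 1434606_at. The WT arrays agreed to within an SD of 0.06, and KO7 stood above the other 5. The log2 change was 0.14 (SE 0.20, 95% interval -0.34 to 0.61, limma adjusted p = 0.764), and -0.10 without KO7. On the dim 1452482_at, Erbb3 was at 4.81, 5.05 and 5.22 in KO and 4.90, 4.94 and 5.08 in WT, a change of 0.05. KO7 was the highest array for each Erbb3 probe set and for Erbb2, and the lowest KO array on the brightest Egfr probe sets. The mean over 6 hormone-sensing luminal markers was 11.18 on KO7, 10.84 to 11.00 on the other KO arrays and 10.75 to 11.02 in WT. Of the KO arrays, KO7 was highest for Esr1, Foxa1, Tbx3 and Wnt4 but lowest for Pgr and Prom1. The mean over 8 luminal markers was 13.55 on KO7, 13.40 and 13.62 on KO5 and KO6, and 13.12 to 13.59 in WT. The mean over 8 fibroblast markers was 11.02 on KO7, 11.63 and 11.66 on KO5 and KO6, and 10.82 to 11.18 in WT. These lists were taken from the marker lists with the KO7 values known, and their part in those values was not tested.

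The other neuregulins and the remaining receptor were listed beside the members. Erbb4, the receptor that WWOX binds, was at 2.77 on each KO array and at 2.81, 2.77 and 2.77 in WT, among the lowest values of the array, with a log2 change of -0.01. The 3 probe sets of Nrg2 changed by 0.08, -0.04 and 0.30, the pair of Nrg3 by -0.17 and -0.06, and the pair of Nrg4 by -0.21 and -0.05. None of these 8 probe sets was called, and none reached an unadjusted limma p under 0.05. Whether Erbb4 was expressed cannot be judged from a probe set this dim.

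Downstream and around the receptors, 98 genes in 6 lists were followed, of which 89 had a probe set of their own symbol alone. With each gene read by its brightest probe set, 0 of 89 were called, against 0.978% of all named genes. An unadjusted limma p under 0.05 was reached by 14 that were higher and 7 that were lower in KO, together 23.6%, against 19.1% of all named genes, and the median change of the 89 was 0.03. The genes of the lists without such a probe set were not analysed here.

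Among 8 genes of ligand release, the metalloproteases that free the ligands and the rhomboid family proteins that act on them, 4 lay higher and 1 lay lower in KO with an unadjusted p under 0.05, and the median change was 0.23. The smallest p was that of Rhbdf1, an inactive rhomboid that aids the maturation of ADAM17. It was at 10.27, 10.30 and 10.22 in KO and 9.81, 9.74 and 9.57 in WT, a log2 change of 0.55 (SE 0.11, limma adjusted p = 0.0694), or short of 2-fold. Of 19 adaptors and members of the Ras-MAPK cascade, 2 lay higher and 1 lay lower by the same limit, with a median of 0.05. The smallest p was that of Shc1, the adaptor that links receptors to Ras, at 7.97, 8.09 and 8.05 in KO and 7.72, 7.09 and 7.29 in WT, a log2 change of 0.67 (SE 0.17, limma adjusted p = 0.103). WT1 was again the WT array nearest to KO, and with the covariate for the 3' excess the change of Shc1 was 0.10 (limma unadjusted p = 0.629), whereas that of Rhbdf1 was 0.45.

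Of 14 genes of the PI3K-AKT branch, 1 lay higher and 2 lay lower with an unadjusted p under 0.05, with a median of 0.03. Pik3r3, a regulatory subunit of PI3K, had the smallest p of all 89 genes. It was at 7.27, 6.99 and 7.16 in KO and 7.81, 7.92 and 7.98 in WT, a log2 change of -0.76 (SE 0.12, unadjusted p = 0.000271, limma adjusted p = 0.0533). KO and WT were apart, and the difference was several times the spread within a group, yet short of 2-fold. With the covariate for the 3' excess its change was -0.65.

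Of 26 genes of receptor turnover and feedback inhibition, 3 lay higher and 2 lay lower with an unadjusted p under 0.05, a share near that of all named genes, and the median was -0.10. Eps15, an endocytic adaptor of activated EGFR, was at 10.37, 10.04 and 10.46 in KO and 10.90, 10.85 and 10.77 in WT, a log2 change of -0.55 (SE 0.14, unadjusted p = 0.00469, and -0.64 with the covariate). Of 18 transcripts that EGF signalling is known to induce, 4 lay higher and 1 lay lower by the same limit, with a median of 0.06. The smallest p there was that of Klf10, a transcriptional repressor, at 10.66, 10.50 and 10.42 in KO and 10.76, 11.11 and 11.03 in WT, a log2 change of -0.44 (SE 0.13, limma adjusted p = 0.142, and -0.12 with the covariate).

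**Figure D5:**
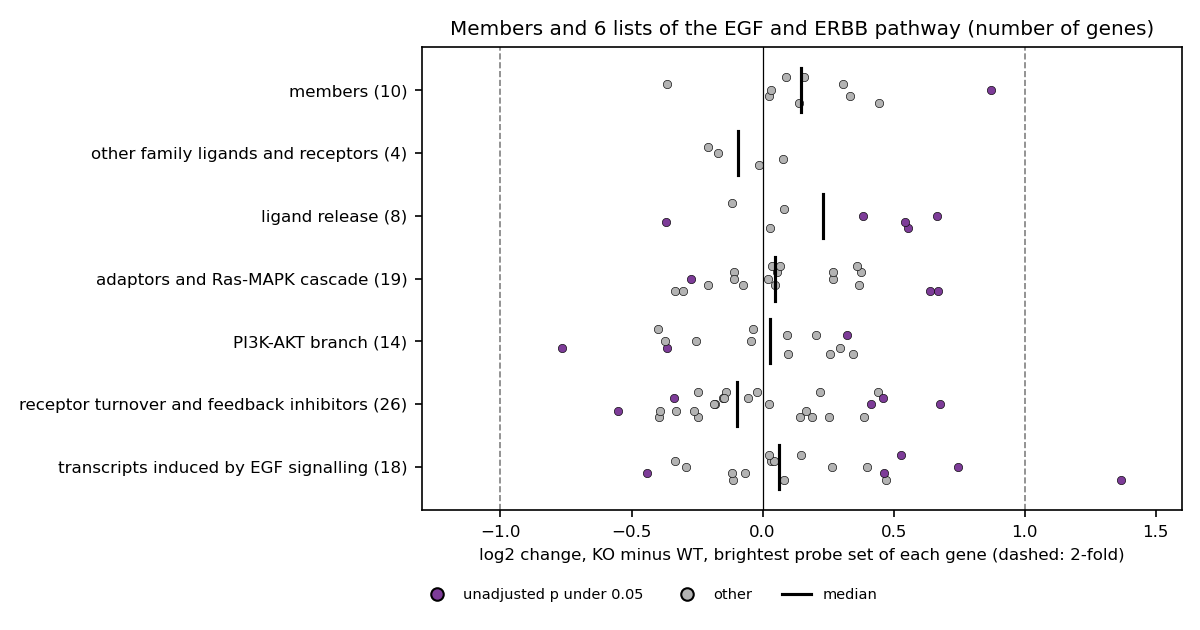
Log2 change, KO minus WT (x axis), of the brightest probe set of each gene in 7 rows, the 10 members at the top and 6 pathway lists under them. Purple points have an unadjusted limma p under 0.05, grey points do not, vertical bars are medians and dashed lines mark 2-fold. List medians lie between -0.10 and 0.23, and the single point beyond 2-fold, Junb at 1.37, has unadjusted p = 0.0267.

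The single gene of the lists beyond 2-fold on its brightest probe set was Junb, an immediate early gene, singled out after its values had been seen. It was at 11.57, 11.37 and 11.45 in KO and 11.33, 9.09 and 9.86 in WT, a log2 change of 1.37 (SE 0.50, unadjusted p = 0.0267). As for Hbegf 1418350_at, WT1 lay near the KO arrays and WT2 and WT3 far below. Without WT1 Junb was at 1.99 and within the limits of a call, as was Klf6 at 1.01, also named after its values had been seen. These limits were then met by 3.63% of all probe sets, and the share among brightest probe sets was not computed.

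Where any probe set of a gene could count, 11 of the 89 genes (12.4%) had a call higher in KO, against 2.95% of all named genes. A call lower in KO was held by 0 of the 89. None of the 11 calls was on the brightest probe set of its gene, these genes had a median of 4 probe sets, against 1 over all named genes, and their names were noted after the values had been seen. They were the kinase genes Pdpk1, Akt1 and Braf, the release genes Adam17, Adam15 and Rhbdl2, the inhibitors and turnover genes Cbl, Spred2 and Rasa1, the mTOR partner Rictor, and Klf6. The widest difference was that of Pdpk1 on 1416501_at, at 8.31, 7.93 and 8.52 in KO and 7.21, 5.36 and 5.10 in WT, a log2 change of 2.36 (SE 0.51, limma adjusted p = 0.0789). On its brightest probe set the log2 change of Pdpk1 was -0.36, in the other direction. Adam15 on 1425170_a_at, at 5.89, 5.99 and 6.09 in KO and 4.96, 4.69 and 4.67 in WT, had the only adjusted p under 0.05 of the 11, with a log2 change of 1.22 (SE 0.12, limma adjusted p = 0.0350). The 35 other probe sets of these 11 genes are by definition those without a call. Their median change was 0.15, against 1.40 for the called ones. Since the size of the change was part of the call that divided them, this contrast is description only.

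Most of these 11 probe sets, but not all, moved with the libraries as the higher Hbegf probe set did. WT1 was the WT array nearest to KO for 10 of the 11. With the covariate for the 3' excess 0 of the 11 were called by limma, without WT1 11 were, without WT2 7 and without WT3 10. Calls over all probe sets shifted too. They went from 894 to 316 with the covariate, to 1634 without WT1, to 566 without WT2 and to 890 without WT3. The 11 had been picked for their calls, so whether these counts are particular to them was not tested. With this covariate the change was 0.45 for Pdpk1, 0.32 for Akt1 and 0.04 for Rasa1 (1.33 without it). It was 1.35 for Spred2 (1.34 without it), 0.95 for Adam15 (1.22) and 0.90 for Rhbdl2 (1.16), so that the loss of a call did not always come with a smaller change. For none of the genes named here was the position of its probe sets along the transcript known, so whether the discordant probe sets lie nearer to the 5' end was not tested.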

How the data were processed

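The authors deposited 1 table of log2 values for the 6 Affymetrix arrays, made with RMA, whose version is not given in the sources used here. RMA removes background, quantile normalizes between arrays and combines the probes of a probe set into 1 value. Quantile normalization sets all arrays to 1 distribution, so that a shift of most transcripts could not be seen. The table holds 45101 probe sets. The 64 controls were left out of the tests. Of the remaining 45037, 34945 carry 1 gene symbol in the platform annotation, 932 several and 9160 none, and only the first kind named a gene. The values were not normalized again.

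The comparison of KO with WT was fitted by lmFit and eBayes (limma 3.58.1 under R 4.3.3), two-sided, on all probe sets other than controls, with Benjamini-Hochberg adjustment over them. This step was first tested on simulated data. The limits of a call, an unadjusted p under 0.01 and 2-fold, follow the study's methods. Where a gene needed 1 value, the probe set with the highest mean over the 6 arrays was taken and called the brightest.

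All 21 member probe sets were named. Of the 6 pathway lists, all probe sets of the other family ligands and receptors were named, and of each other list the called genes or, where none was called, the gene with the smallest p. Genes of these lists named outside this rule are marked as such. Marker genes of cell types were named as examples or because they were called, with their values known. The members, lists, rule and alternatives were chosen with earlier results of these data known. Markers of 10 cell types were summarised as means per array. In the basal, luminal, hormone-sensing luminal, luminal progenitor and alveolar, fibroblast, endothelial, macrophage and dendritic, lymphocyte, adipocyte and nerve lists together, 3 of 70 measured genes were called higher and 1 lower on the brightest probe set.

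Alternatives were further normalization, a filter on low values, other variance priors, array weights, the replicate number as a block, a covariate for the 3' excess of control transcripts, other limits, and each array left out in turn. The number of arrays limits the precision. Figures were drawn in matplotlib 3.10.9.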

Additional observations from a re-analysis of the deposited data

How the results depend on the processing

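The count of 0 called members by limma (1 at an unadjusted p under 0.05) was also 0 with quantile and cyclic loess normalization, ribosomal protein centring, a minimum mean log2 value of 6, a trended and robust prior, unmoderated variances and array weights. The filter, the other prior and the unmoderated variances do not alter the estimates, of which the largest among members was 0.87. No member could reach 2-fold in those settings, so their count of 0 was fixed in advance. The count was 2 with the covariate for the 3' excess and 1 with limits of p under 0.01 and 1.5-fold. It was between 0 and 1 with single arrays left out, the 1 being Hbegf 1418350_at without WT1. Of the 21 changes, 5 kept their sign in each setting run for them (at most 15) and 16 took the other sign in at least 1. The median change of the members, 0.16, was 0.28 after ribosomal protein centring, which also moved the median of all probe sets to 0.09, against -0.03 before. With single arrays left out it was between 0.015 (without WT1) and 0.19. The cause of these shifts was not tested.

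The count of 0 called pathway genes on the brightest probe set was 1 with array weights (Junb at 1.65). It was 1 at p under 0.05 and 2-fold, and 3 at p under 0.01 and 1.5-fold. Of all probe sets, 5.36% met the latter limits, but the share among brightest probe sets, the like measure, was not computed. At the main limits the shares were 1.99% of all and 0.978% of brightest probe sets. The count was 11 with any probe set of a gene, and between 0 and 2 with single arrays left out, the highest without WT1. Calls over all probe sets also rose, from 894 to 1184 with array weights and to 1634 without WT1. The Wwox probe set 1438517_at, called at -1.04, was not called with array weights (-0.92) or centring on ribosomal proteins (-0.92), without WT1 (-0.86) or WT3 (-0.97), or with unmoderated variances.

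The replicate numbers of the labels name separate mice. Deviations from the group means correlated at -0.16, 0.16 and 0.10 over all probe sets between arrays of the same number, so the arrays were not treated as paired. With the number as a replicate block, 0 members and 0 pathway genes were called and the median change was 0.16. The block does not alter the estimates, so that no member could reach 2-fold with it. Over all probe sets 922 were called with the block and 894 without it. The change of a dim probe set such as that of Egf or Erbb4 is limited by background, which the deposited values do not give.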
